A study of Homo sapiens with 3 samples.

Results

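The 39 genes described here encode proteins that work at the moving DNA replication fork or that package the new DNA behind it. They were taken by name from a list that covers the sliding clamp and its loaders, the replicative polymerases with primase, the GINS helicase subunits, the enzymes that finish the lagging strand, replication protein A, fork protection factors, the histone chaperones of chromatin assembly and topoisomerase II alpha. All 39 had a probe set that names a single gene, out of 19775 genes so named on the array, and all 39 gave a signal above the floor of 45.5 array units in every condition. The genes lie on 20 chromosomes, with at most 5 on any of them.

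The cells were IMR-90 ER:Ras, a derivative of the normal human lung fibroblast line IMR-90 named for the inducible Ras it carries. ER:Ras proteins of this kind carry the ligand-binding domain of an estrogen receptor, and Ras signals once 4-hydroxytamoxifen (4-OHT) occupies it. RNA came from 3 cultures. The first had been held in 100 nM 4-OHT for 6 days to bring on oncogene-induced senescence, here OIS. Another had been passaged for 10 weeks until it reached replicative senescence, here RS. The last was of growing cells and received no treatment. All 3 carried the ER:Ras construct, and the labels give neither its promoter nor the number of clones in the line. The growing culture was listed as untreated, so Ras activity and exposure to 4-OHT as such cannot be told apart, and time in culture cannot be told apart from senescence in RS.

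A replication fork unwinds DNA with a helicase, coats the single strands with replication protein A, and copies them with DNA polymerases that are held on the template by a ring-shaped clamp. The leading strand is copied in a continuous run and the lagging strand in short Okazaki fragments, which are trimmed and joined. Histone chaperones then deposit histones on both daughter strands. Many of these genes are transcribed under E2F factors as cells enter S phase, and senescent fibroblasts have left the division cycle.

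Each condition was measured on 1 array, which allows no test of the conditions and gives no error between cultures. A gene was read from its brightest probe set. The floor is the median of all values on the 3 arrays, and lower values were set to it before log2 ratios were formed. A gene is called when its ratio reaches 2-fold. The arrays were alike in scale, with medians of 45.3 in OIS, 44.9 in RS and 46.2 in growing cells. The background is the 13466 named genes that exceeded the floor in 1 or more conditions. A gene's other probe sets are the only repeat measurement. Across 6759 genes with a measured pair, the log2 ratios of the 2 probe sets differed with an SD of 0.51 in OIS over growing and 0.47 in RS over growing. All 10 fibroblast markers were above the floor on every array, with summed signals of 142697 in OIS, 163535 in RS and 152075 in growing cells. Of 7 epithelial markers 2 were above the floor in OIS, 2 in RS and 3 in growing cells, with summed signals of 197, 336.3 and 356.9. Of 5 blood cell markers 3, 3 and 2 were, with sums of 434, 356.7 and 368.3, and of 5 endothelial markers 2 on each array, with sums of 283.4, 162.4 and 136.1. At or below the floor on every array were CDH1 of epithelium, PTPRC of blood cells and CDH5 of endothelium. Above it were the endothelial PECAM1, with 135 in OIS and 52.7 in RS, against 49 in growing cells, and VWF, with 130.5 in OIS and 80.9 in RS, against 59.7 in growing cells. The epithelial EPCAM had 49.1 in OIS and 194.2 in RS, against 157.1 in growing cells, and the globin HBB had 276.7 in OIS and 187.1 in RS, against 267.2 in growing cells. Their part in the results was not tested.

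In OIS, 28 of the 39 genes were at least 2-fold lower than in growing cells and none was 2-fold higher, where 6.63% of all measured genes were at least 2-fold lower and 4.92% at least 2-fold higher. In RS, 26 of the 39 were at least 2-fold lower and none 2-fold higher, against 5.58% and 3.72% of all measured genes. The median log2 ratio of the members was -1.48 in OIS and -1.39 in RS, while the median over all measured genes was 0.00 in both comparisons. At least 4-fold lower were 12 members in OIS and 6 in RS, where the shares of all measured genes were 1.58% and 1.26%. Both comparisons use the same growing array, so they are not independent of each other. In RNA of a whole culture, fewer cells in S phase and less of an mRNA in each cell cannot be told apart.

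**Figure D1:**
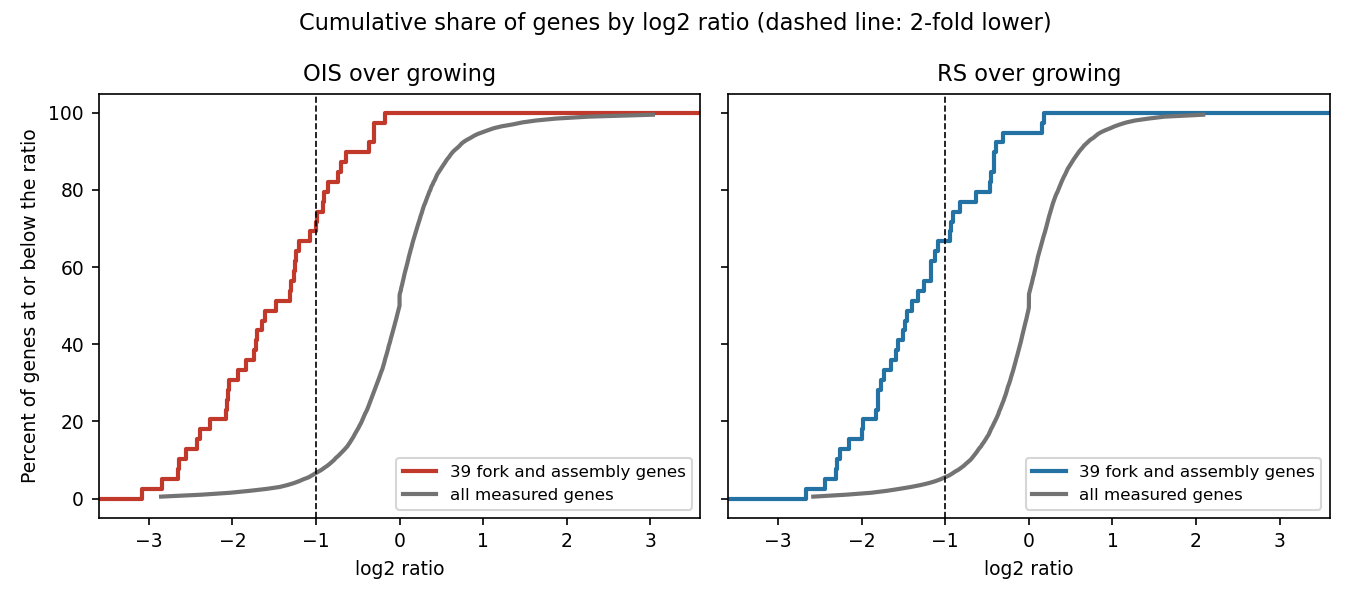
Cumulative percent of genes (y axis) at or below each log2 ratio (x axis) for the 39 fork and chromatin assembly genes (coloured steps) and all 13466 measured genes (grey), for OIS over growing on the left and RS over growing on the right. At the dashed line of 2-fold lower the members have reached 28 of 39 genes in OIS and 26 of 39 in RS, while the grey curves stand at 6.63% and 5.58%.

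The members did not move as a block. Their log2 ratios ran from -3.08 for TOP2A to -0.17 for POLE4 in OIS, and from -2.67 for TOP2A to 0.18 for RFC5 in RS. All 39 ratios were below 0 in OIS, where 49.9% of all measured genes were, and 37 of 39 were in RS, where 49.3% were. Some complexes were low in every subunit and others held a mixture, as the account by role below shows.

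**Figure D2:**
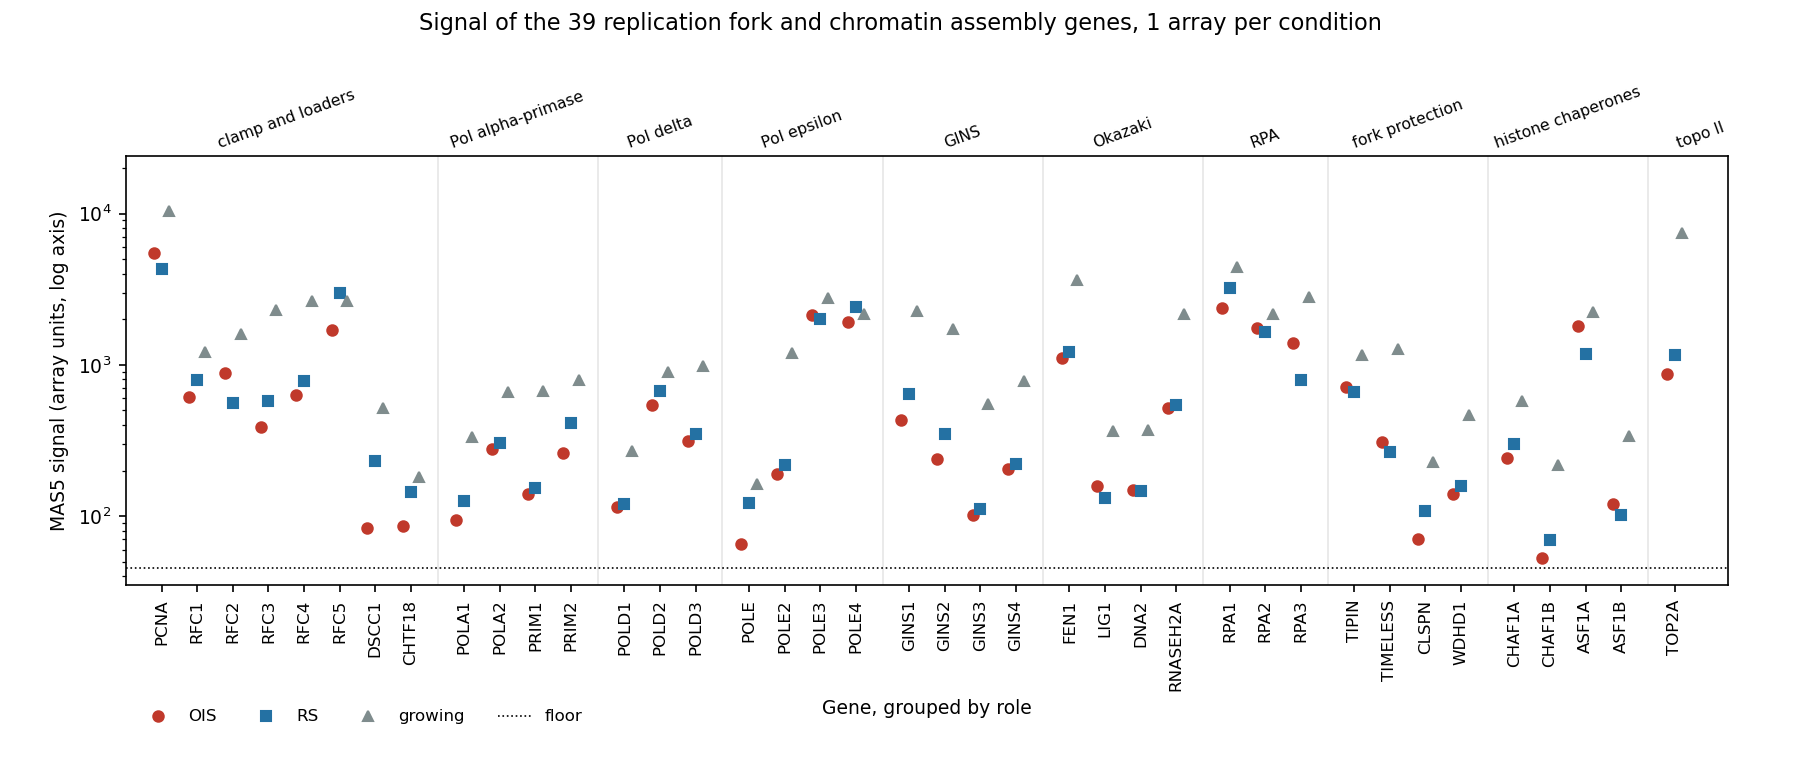
MAS5 signal in array units (y axis, log scale) of each of the 39 genes (x axis, grouped by role) on the OIS array (red circles), the RS array (blue squares) and the growing array (grey triangles); the dotted line is the floor of 45.5. The grey triangle is the highest point for all genes except RFC5 and POLE4, for which the RS square is higher; levels of different genes come from different probe sets and cannot be compared.

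The promoters of the members were examined for 3 short motifs known from cell cycle genes, because so many members were low together. RefSeq promoters on build GRCh38.p14, running from 250 bases before to 50 bases after the annotated start, were on hand for 33 of the 39 genes. An E2F-type motif (TTTCCCGC, TTTGGCGC, TTTCGCGC or TTTGCCGC, either strand) was present for 13 of 33 members, 39.4%, where 6.43% of the measured genes with a promoter and 3.99% of all 27305 genes with a promoter held it. CCAAT, on either strand, was present for 20 of 33 members, 60.6%, against 43.0% of measured genes and 39.7% of all genes. The cell cycle homology region (CHR, written here as TTTGAA or TTCGAA on either strand) was present for 3 of 33 members, 9.09%, against 16.1% and 19.5%. A gene with several annotated starts was counted when any of them held the motif, and matches of different motifs never shared a base in the members' promoters. A match is only a run of letters and does not show that a factor was bound.

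The stretches below, each from 150 bases before to 10 bases after the start, are shown because 4 of these genes were low in both senescent states and the last, POLE4, was not although it holds the same letters. Capitals mark the E2F-type motif, which here is read on the opposite strand in every case. The locations are chr16:85688945-85689104, minus strand for GINS2, chr16:58392321-58392480, plus strand for GINS3, chr14:49688205-49688364, minus strand for POLE2, chr1:35769969-35770128, minus strand for CLSPN and chr2:74958493-74958652, plus strand for POLE4.
GINS2: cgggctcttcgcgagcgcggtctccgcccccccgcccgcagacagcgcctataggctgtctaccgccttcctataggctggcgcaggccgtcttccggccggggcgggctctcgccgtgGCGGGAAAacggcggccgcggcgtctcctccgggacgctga
GINS3: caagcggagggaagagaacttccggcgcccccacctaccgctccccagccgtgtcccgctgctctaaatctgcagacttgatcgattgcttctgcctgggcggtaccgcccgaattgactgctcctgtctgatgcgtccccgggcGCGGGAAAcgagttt
POLE2: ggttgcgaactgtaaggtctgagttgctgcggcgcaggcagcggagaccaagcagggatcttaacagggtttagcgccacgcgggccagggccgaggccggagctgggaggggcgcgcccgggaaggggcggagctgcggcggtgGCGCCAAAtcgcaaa
CLSPN: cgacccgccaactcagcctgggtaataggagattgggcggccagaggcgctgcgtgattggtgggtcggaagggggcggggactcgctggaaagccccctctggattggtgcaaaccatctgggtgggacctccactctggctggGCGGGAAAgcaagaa
POLE4: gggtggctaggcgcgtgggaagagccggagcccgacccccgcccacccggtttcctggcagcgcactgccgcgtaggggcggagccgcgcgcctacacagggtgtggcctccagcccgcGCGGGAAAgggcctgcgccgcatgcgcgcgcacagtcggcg

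The motif lies close to the start in all 5 of these promoters, and the letters TTTCCCGC recur in GINS2, GINS3, CLSPN and POLE4 while POLE2 has TTTGGCGC. GINS2 had 7.19-fold and 4.92-fold lower signal in OIS and RS than in growing cells, whereas POLE4, with the same 8 letters, was 1.12-fold lower in OIS and 1.11-fold higher in RS. Among members with a promoter that were at least 2-fold lower in OIS, 10 of 23 had an E2F-type motif. Among the rest 3 of 10 did. The contrast depended on the window. When the promoters ended at the start, 6 of 23 lower members and 3 of 10 of the rest had the motif. In that window the motif was not more frequent among the lower members. GINS3, POLE2 and CLSPN, whose matches run across the start, were among those that lost it.

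**Figure D3:**
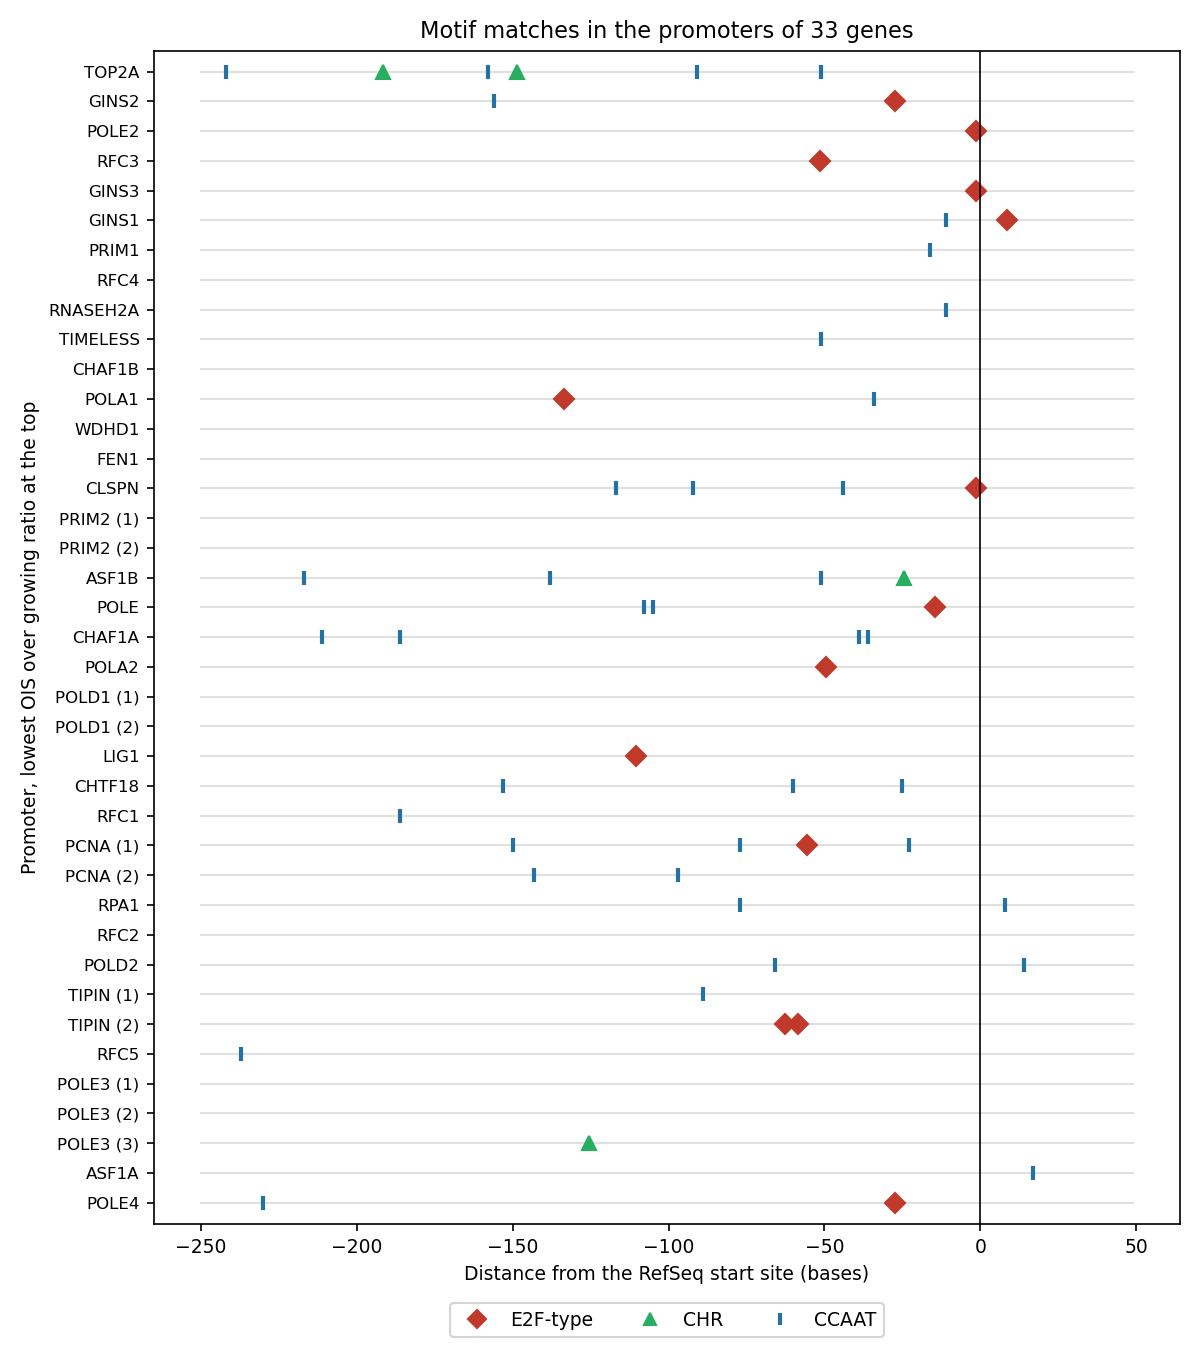
Position of each motif match (x axis, distance in bases from the RefSeq start site at 0) in the promoters of 33 members (y axis, ordered from the lowest OIS over growing ratio at the top; a number in brackets tells several promoters of 1 gene apart). Red diamonds are E2F-type motifs, green triangles the CHR and blue bars CCAAT; E2F-type matches are found for 13 genes, from GINS2 near the top to POLE4 at the bottom.

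The sliding clamp, PCNA, is a ring that holds polymerases on DNA and serves as a docking platform for many fork enzymes. Its signal was 5461.9 in OIS and 4319.3 in RS, against 10321.1 in growing cells. It was thus 1.89-fold lower in OIS, short of 2-fold, and 2.39-fold lower in RS. The ring is opened by replication factor C, whose subunits are RFC1 to RFC5. RFC3 had signals of 389.5 in OIS and 577.6 in RS, against 2292.2 in growing cells, 5.88-fold and 3.97-fold lower. RFC4 had 630.9 in OIS and 776 in RS, against 2650.3 in growing cells, 4.20-fold and 3.42-fold lower. These small subunits differed from RFC1, the large one, which was 1.98-fold lower in OIS, just short of the threshold, and 1.55-fold lower in RS. RFC2 was 1.82-fold lower in OIS and 2.83-fold lower in RS.

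RFC5 stood apart from its partners only in its brightest probe set. There the signal was 1693.9 in OIS and 2973 in RS, against 2631.5 in growing cells, 1.55-fold lower and 1.13-fold higher. The next probe set of RFC5 read 295.9 in OIS and 354.1 in RS, against 1095 in growing cells, 3.70-fold and 3.09-fold lower. The remaining one read 142.5 in OIS and 97.7 in RS, against 396.3 in growing cells, 2.78-fold and 4.06-fold lower. The brightest probe set and the other pair therefore disagree on whether RFC5 was past 2-fold, and the signal alone does not tell which transcripts each reads. DSCC1 and CHTF18 belong to an alternative clamp loader that acts in sister chromatid cohesion. DSCC1 had 83.3 in OIS and 230.1 in RS, against 517.7 in growing cells, 6.21-fold and 2.25-fold lower. It was the single member past 2-fold between the senescent states, 2.76-fold lower in OIS than in RS, where 5.27% of all measured genes were at least 2-fold lower. CHTF18 was low on every array, with 86 in OIS, 145 in RS and 180 in growing cells, 2.09-fold lower in OIS and 1.24-fold lower in RS. With quantile normalization its log2 ratio in OIS was -0.95, short of 2-fold.

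DNA polymerase alpha with primase starts each new strand by laying down a short RNA and DNA primer, and all 4 of its subunits were at least 2-fold lower in OIS. PRIM1, the catalytic primase subunit, had 139.7 in OIS and 152.1 in RS, against 674.6 in growing cells, 4.83-fold and 4.44-fold lower. POLA1, the catalytic polymerase subunit, had 93.5 in OIS and 126.6 in RS, against 332.8 in growing cells, 3.56-fold and 2.63-fold lower. PRIM2, the regulatory primase subunit, was 3.04-fold lower in OIS and 1.92-fold lower in RS, and POLA2 was 2.38-fold and 2.18-fold lower. In RS 3 of the 4 passed 2-fold, PRIM2 being the exception. A further 4 probe sets name PRIM2 together with PRIM2BP and were not used for the gene. Of these, 2 were above the floor, at 71.1 in OIS, 115 in RS and 315.2 in growing cells for the first and 147.4, 179 and 347.4 for the second.

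Polymerase delta copies mainly the lagging strand. POLD3, an accessory subunit, had 311.8 in OIS and 350 in RS, against 976 in growing cells, 3.13-fold and 2.79-fold lower. POLD1, the catalytic subunit, had 114.4 in OIS and 119.2 in RS, against 269.1 in growing cells, 2.35-fold and 2.26-fold lower. POLD2 was 1.67-fold lower in OIS and 1.34-fold lower in RS. The small subunit POLD4, which is not among the 39 genes, lay on the other side, at 1307.7 in OIS and 1030.4 in RS, against 728.6 in growing cells, 1.79-fold and 1.41-fold higher.

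Polymerase epsilon copies mainly the leading strand, and its subunits spread more widely than the genes of any other role here, over 2.48 log2 units in OIS and 2.60 in RS. POLE2, the second subunit, had 189 in OIS and 218.6 in RS, against 1188.6 in growing cells, 6.29-fold and 5.44-fold lower. POLE, the catalytic subunit, was dim, at 65.7 in OIS, 121.8 in RS and 162.2 in growing cells, 2.47-fold lower in OIS and 1.33-fold lower in RS, and a floor at the 60th percentile brought its OIS log2 ratio to -0.87, short of 2-fold. The small histone-fold subunits were bright and close to level: POLE3 was 1.29-fold and 1.38-fold lower, and POLE4 had 1930.8 in OIS and 2421.2 in RS, against 2171.9 in growing cells. POLE3 is also known as a subunit of a chromatin remodelling complex.

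GINS joins CDC45 and the MCM ring to form the active helicase. On their brightest probe sets all 4 GINS genes were at least 3-fold lower in both senescent states. GINS2 had 239.4 in OIS and 349.6 in RS, against 1720.4 in growing cells. GINS3 had 102 in OIS and 110.9 in RS, against 547 in growing cells, 5.36-fold and 4.93-fold lower. Each GINS assembly holds 1 copy of every subunit. GINS1 had 433.8 in OIS and 638.5 in RS, against 2277.4 in growing cells, 5.25-fold and 3.57-fold lower. GINS4 was 3.81-fold lower in OIS and 3.50-fold lower in RS. A second GINS4 probe set above the floor on every array was 3.12-fold lower in OIS and 2.01-fold lower in RS. The GINS genes had a median log2 ratio of -2.41 in OIS and -2.07 in RS, the lowest of the roles with more than 1 gene. A dim second probe set of GINS2, at 71.5 in OIS, 84.6 in RS and 95.6 in growing cells, gave log2 ratios of only -0.42 and -0.18.

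**Figure D4:**
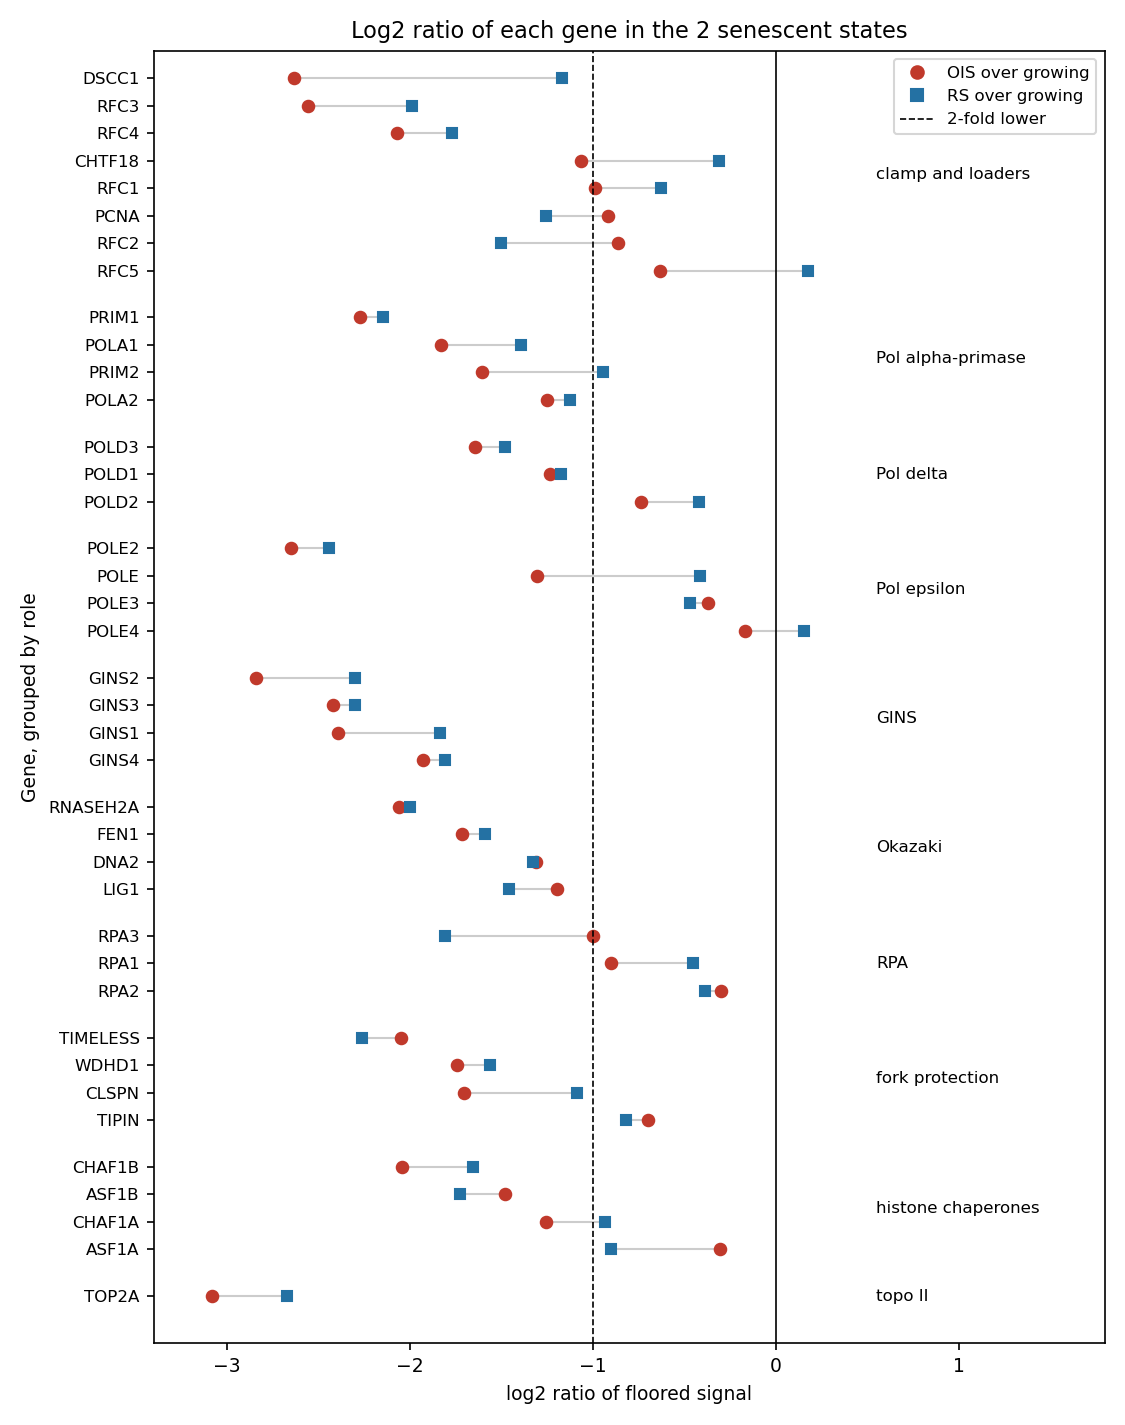
Log2 ratio of floored signal (x axis) of OIS over growing (red circles) and RS over growing (blue squares) for each of the 39 genes (y axis, grouped by role and ordered by the OIS ratio); the dashed line marks 2-fold lower. GINS genes lie left of the line in both states, while RFC1, RFC5, POLD2, POLE3, POLE4, RPA1, RPA2, TIPIN and ASF1A lie right of it in both.

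The enzymes that finish the lagging strand were alike. FEN1, the flap endonuclease, had 1112.6 in OIS and 1214.2 in RS, against 3653.1 in growing cells, 3.28-fold and 3.01-fold lower. RNASEH2A, the catalytic subunit of ribonuclease H2, which removes RNA from DNA, had 516.8 in OIS and 540.3 in RS, against 2158.6 in growing cells, 4.18-fold and 4.00-fold lower. LIG1, the ligase that seals the fragments, was 2.29-fold lower in OIS and 2.75-fold lower in RS, and the nuclease and helicase DNA2 was 2.48-fold and 2.51-fold lower. All 4 were thus at least 2-fold lower in both states. The partner subunits of ribonuclease H2 are not members and were chosen here after their values were seen. RNASEH2B was 2.13-fold lower in OIS and 2.02-fold lower in RS, whereas RNASEH2C was 1.05-fold higher in OIS and 1.23-fold lower in RS. Other RNASEH2B probe sets above the floor were 1.44-fold and 2.51-fold lower in OIS. In RS they were 1.27-fold higher and 3.78-fold lower. A dim RNASEH2C probe set was 1.42-fold lower in OIS and 1.07-fold higher in RS. The direction of RNASEH2C in both states and that of RNASEH2B in RS are therefore not settled.

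Replication protein A is a trimer that coats single-stranded DNA in replication and in repair. RPA3, its smallest subunit, had 1399.6 in OIS and 798.9 in RS, against 2799.8 in growing cells, just past 2-fold lower in OIS and 3.50-fold lower in RS. RPA1, which binds DNA most strongly, was 1.87-fold lower in OIS and 1.37-fold lower in RS. RPA2 was 1.23-fold and 1.31-fold lower. The trimer is made of equal parts, yet its mRNAs were not lower to the same extent, and only RPA3 passed 2-fold.

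TIMELESS and TIPIN form the complex that keeps helicase and polymerase together, and their mRNAs differed. TIMELESS had 306.5 in OIS and 263.7 in RS, against 1266.7 in growing cells, 4.13-fold and 4.80-fold lower. Its partner TIPIN had 715.5 in OIS and 659.1 in RS, against 1163.2 in growing cells, 1.63-fold and 1.76-fold lower. CLSPN, the mediator that passes the checkpoint signal to CHK1, had 70.3 in OIS and 107.6 in RS, against 228.9 in growing cells, 3.26-fold and 2.13-fold lower, both near the floor in the senescent states. WDHD1, which ties polymerase alpha to the helicase, was 3.35-fold lower in OIS and 2.95-fold lower in RS.

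Chromatin assembly factor 1 is brought to the fork by PCNA and deposits new histones H3 and H4. CHAF1B, its middle subunit, had 52.9 in OIS and 69.3 in RS, against 218.3 in growing cells, 4.13-fold and 3.15-fold lower. CHAF1A, the large subunit, had 240.8 in OIS and 301.1 in RS, against 575.6 in growing cells, 2.39-fold and 1.91-fold lower. RBBP4, the remaining subunit, which many other chromatin complexes share, is not a member and was chosen here after its values were seen. It was 1.20-fold lower in OIS and 1.58-fold lower in RS. Other RBBP4 probe sets ranged in OIS from 1.23-fold lower to 1.40-fold higher, so its direction there is not settled. The signal of CHAF1B in OIS was close to the floor, and a floor set at the 60th percentile changed its log2 ratio to -1.30 where it had been -2.04.

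ASF1A and ASF1B are paralogous chaperones that carry H3 and H4 to the assembly factors, ASF1B being the form tied to proliferation. ASF1B had 120.8 in OIS and 101.9 in RS, against 337.7 in growing cells, 2.80-fold and 3.31-fold lower. ASF1A had 1794.9 in OIS and 1187 in RS, against 2219.6 in growing cells, 1.24-fold and 1.87-fold lower. A second probe set of ASF1A gave 1.32-fold and 1.65-fold lower, so neither reached 2-fold. TOP2A, the topoisomerase that untangles sister DNA from S phase to mitosis, had the lowest ratio of all members. Its signal was 873 in OIS and 1162.6 in RS, against 7406.5 in growing cells, 8.48-fold and 6.37-fold lower. A second bright probe set of TOP2A gave 8.78-fold and 6.98-fold lower. Counted from the lowest ratio of all 13466 measured genes, TOP2A was number 35 in OIS and 54 in RS.

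The promoters of TOP2A and ASF1B are shown because, of the 23 members with a promoter that were at least 2-fold lower in OIS, these were the 2 with a CHR. Beside them stands that of ASF1A, the paralog with the smaller difference. Each runs from 250 bases before to 10 bases after the start, at chr17:40417887-40418146, minus strand for TOP2A, chr19:14136580-14136839, minus strand for ASF1B and chr6:118893902-118894161, plus strand for ASF1A. Capitals mark the CHR and CCAAT motifs, on either strand.
TOP2A: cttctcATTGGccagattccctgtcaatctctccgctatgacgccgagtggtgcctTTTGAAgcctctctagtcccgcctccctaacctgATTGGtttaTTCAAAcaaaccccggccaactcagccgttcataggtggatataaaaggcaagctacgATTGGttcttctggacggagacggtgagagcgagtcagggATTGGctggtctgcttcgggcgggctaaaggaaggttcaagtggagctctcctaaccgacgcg
ASF1B: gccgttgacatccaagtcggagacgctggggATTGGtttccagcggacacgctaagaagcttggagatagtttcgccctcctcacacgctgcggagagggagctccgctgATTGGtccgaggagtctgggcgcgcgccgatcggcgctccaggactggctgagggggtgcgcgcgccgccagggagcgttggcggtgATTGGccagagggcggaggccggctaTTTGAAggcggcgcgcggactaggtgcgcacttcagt
ASF1A: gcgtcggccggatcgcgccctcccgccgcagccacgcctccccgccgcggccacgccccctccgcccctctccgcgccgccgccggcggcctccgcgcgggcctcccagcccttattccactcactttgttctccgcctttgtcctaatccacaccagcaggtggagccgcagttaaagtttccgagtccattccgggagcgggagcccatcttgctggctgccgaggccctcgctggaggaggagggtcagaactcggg

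TOP2A has 2 CHR and 4 CCAAT matches, and ASF1B has 1 CHR and 3 CCAAT matches. ASF1A has none of these letters in the stretch shown, but a CCAAT lies just past its end, 15 to 19 bases after the start, and ASF1A is counted among the 20 members with that motif.

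Other probe sets gave a check on the members. In all 73 probe sets name the 39 genes, and 20 genes have a single one. For 18 genes a further 29 probe sets exceeded the floor in 1 or more conditions. Of these, 28 were below 0 in OIS and 28 in RS, the exception being a dim one of POLA2, and 13 were at least 2-fold lower in each. The 17 that were above the floor on all 3 arrays differed from the brightest probe set by a median of 0.16 log2 units in OIS and 0.19 in RS. The widest differences among them, 2.43 in OIS and 2.20 in RS, include the dim one of GINS2 in OIS and one of RFC5 in RS. A probe set at the floor in a senescent state gives a ratio closer to 0 than its unfloored signals would.

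**Figure D5:**
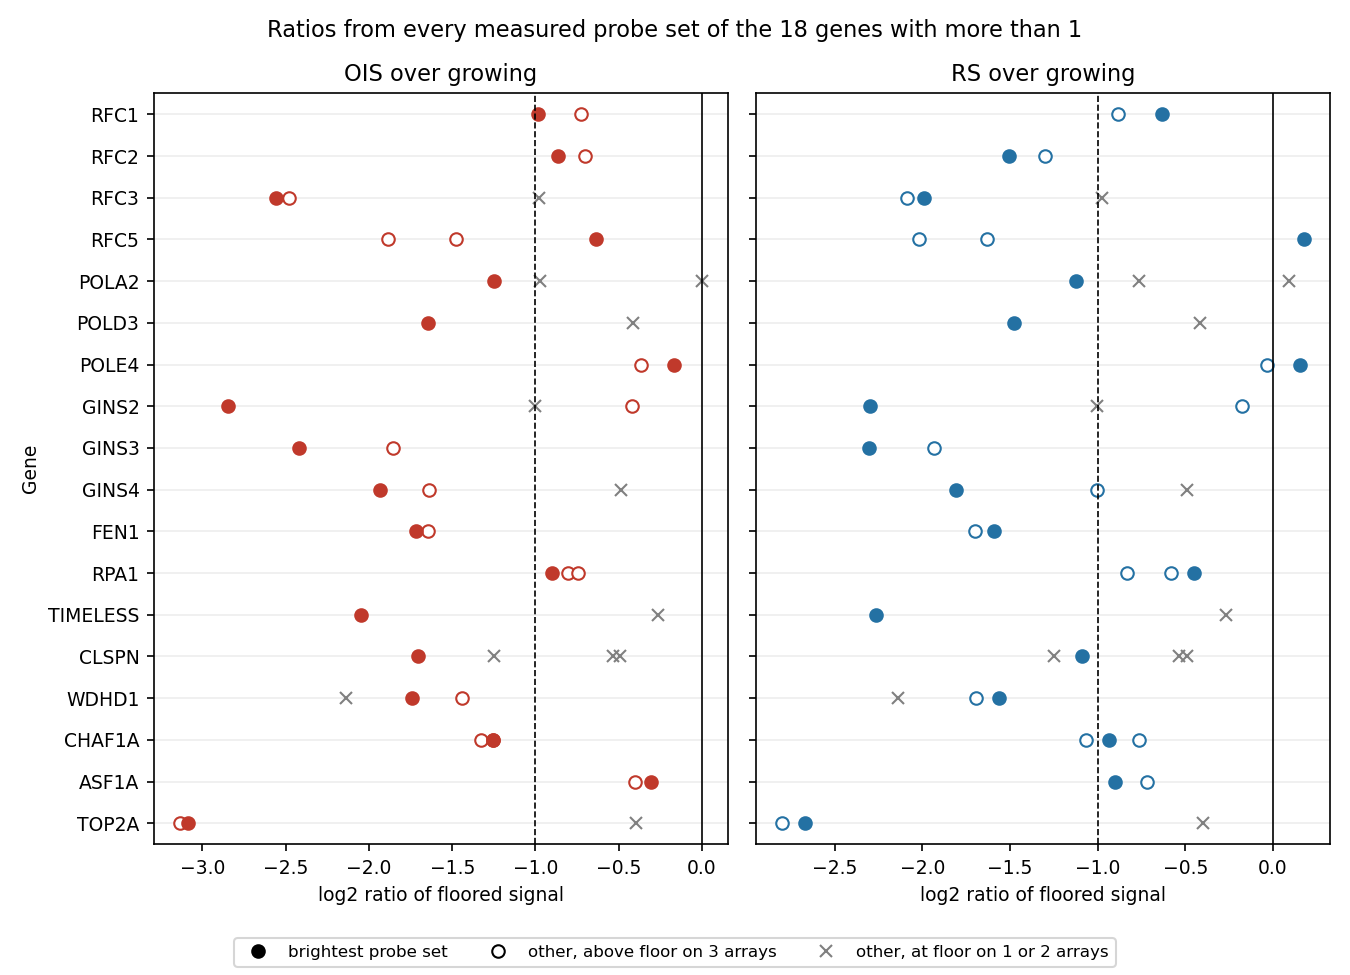
Log2 ratios of floored signal (x axis) from every measured probe set of the 18 members with more than 1 (y axis), for OIS over growing on the left and RS over growing on the right. Filled circles are the brightest probe set, open circles others above the floor on all 3 arrays and crosses others at the floor on 1 or 2 arrays; the open circles of RFC5 lie left of its filled circle, and for TOP2A the open and filled circles are side by side.

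The ratios between the senescent states were smaller than those to growing cells. The median log2 ratio of OIS over RS was -0.18, with 28 of 39 below 0, where 48.1% of all measured genes were. After DSCC1, the lowest were POLE, 1.85-fold lower in OIS, and RFC5, 1.76-fold lower on its brightest probe set. The other RFC5 probe sets were 1.20-fold lower and 1.46-fold higher in OIS than in RS, so its direction is not settled. At the other end RPA3 was 1.75-fold, RFC2 1.56-fold and ASF1A 1.51-fold higher in OIS than in RS, and no member was 2-fold higher, where 5.48% of all measured genes were.

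Other genes of replication and chromatin assembly give the setting. They too were read from the brightest probe set, and further probe sets are given for some of them only. All 8 helicase genes of a second list, MCM2 to MCM7, CDC45 and MCM10, were at least 2-fold lower in both states, with medians of -2.32 in OIS and -1.87 in RS. MCM10 was 7.82-fold and MCM2 5.74-fold lower in OIS, and MCM7 2.31-fold and MCM4 3.86-fold lower. A second probe set of MCM7 was 4.00-fold lower in OIS. CDC45, which binds GINS, had the lowest ratio of the list in RS. There CDC45 was 9.41-fold, MCM2 5.04-fold, MCM5 3.11-fold and MCM3 2.71-fold lower. Of 17 measured other fork genes 7 were at least 2-fold lower in OIS and 9 in RS, and none was 2-fold higher. The shares of all measured genes were 6.63% and 5.58% lower and 4.92% and 3.72% higher. UHRF1, which brings DNA methylation to new DNA, was 4.91-fold and 4.12-fold lower, and the nuclease EXO1 5.17-fold and 3.92-fold lower. TOP1, which relieves torsion ahead of the fork, was 1.28-fold higher in OIS and 1.27-fold lower in RS. A second probe set of TOP1 was lower in both, 1.17-fold in OIS and 1.57-fold in RS, so the direction in OIS is not settled.

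A further list held histone chaperones that act outside replication, chaperones shared with it, and factors that import histones or modify the chaperones. Of 18 measured, none was 2-fold lower in OIS and 1 was higher, and in RS 2 were lower and none higher. Among all measured genes 6.63% were lower and 4.92% higher in OIS, and 5.58% and 3.72% in RS, so these few calls do not set the list apart. DAXX, which deposits H3.3 at silent repeats, had 1613.6 in OIS and 394 in RS, against 566 in growing cells, 2.85-fold higher in OIS and 1.44-fold lower in RS, and its second probe set was 1.62-fold higher in OIS. The lowest in OIS were the kinase TLK1 at 1.66-fold and SUPT16H at 1.54-fold lower, and UBN2 was 1.34-fold higher. A dimmer probe set of SUPT16H was 3.04-fold lower in OIS and 2.11-fold lower in RS. Other TLK1 probe sets above the floor were 2.01-fold, 1.60-fold and 1.05-fold lower in OIS. The counts of this list therefore hold for the brightest probe sets only. In RS NASP, which keeps a store of histones, was 2.85-fold and SSRP1 2.03-fold lower, while CABIN1 was 1.09-fold and TLK2 1.05-fold higher.

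Translesion polymerases copy past damaged bases. Among the 8 genes of that list 2 were at least 2-fold lower in OIS and 1 in RS. For this list and the 2 that follow, the shares of all measured genes were 6.63% lower and 4.92% higher in OIS. In RS they were 5.58% and 3.72%. With lists this short, 1 or 2 calls are not read as a result about the list. The ubiquitin ligase RAD18, which acts on PCNA at stalled forks, was 4.54-fold and 2.02-fold lower, and PRIMPOL 2.09-fold and 1.58-fold lower. In RS the other RAD18 probe sets above the floor were 1.65-fold and 1.86-fold lower, short of 2-fold. REV1 was 1.16-fold higher and POLI 1.15-fold lower in OIS, and POLK was 1.24-fold and POLH 1.04-fold higher in RS. The other REV1 probe sets above the floor were 1.24-fold and 1.17-fold lower in OIS. Base excision and end joining use their own polymerases and ligases. None of 6 measured genes on a list of these enzymes and their repair partners was past 2-fold in OIS. In RS 2 were lower, XRCC1 at 2.49-fold and PARP1 at 2.05-fold, and neither is a DNA polymerase or a ligase. The measured polymerase and ligases, POLB, LIG3 and LIG4, were short of 2-fold in both states. In OIS PARP1 was 1.78-fold and LIG3 1.28-fold lower, and LIG4 1.25-fold and POLB 1.16-fold higher. LIG4 was 1.22-fold higher and LIG3 1.10-fold lower in RS. Of 8 genes that copy mitochondrial DNA, POLRMT, the mitochondrial RNA polymerase, was 2.22-fold higher in OIS and TFAM 2.01-fold lower in RS, and no other was past 2-fold. In RS the other probe sets of TFAM were 1.67-fold, 1.92-fold and 1.23-fold lower, short of 2-fold. TFAM packages mitochondrial DNA and helps start its transcription. TFAM was 1.52-fold and MGME1 1.30-fold lower in OIS, and the helicase TWNK was 1.46-fold higher. In RS MGME1 was 1.37-fold lower, POLRMT 1.45-fold higher and TWNK 1.03-fold higher. The medians of the translesion, repair and mitochondrial lists were -0.30, 0.04 and -0.19 in OIS and -0.45, -0.25 and -0.31 in RS.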

How the data were processed

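Total RNA of 3 cultures was labelled as biotinylated cRNA and hybridized to 1 array each, per the labels' protocols. The authors deposited 1 linear intensity for each probe set, computed by MAS5 according to the labels and the submitters' processing notes, and the MAS5 version and its parameters are not given in the sources. Trimmed means of 497 on every array show a common scale, so a shift of all genes together would not be seen. Genes were named from the platform annotation, using the 41091 of 54613 probe sets with 1 gene symbol. Every column matched a sample, and the labels gave its group.

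The floor, at the 50th percentile of the pooled values, the choice of the brightest probe set, the 2-fold size and the lists are given in the report. The named genes were all 39 members and, of each other list, the 2 highest and 2 lowest measured genes in each comparison with growing cells; TONSL, at the floor in RS and growing cells, is given no fold. The proliferation marker MKI67 was 5.69-fold lower in OIS and 4.21-fold lower in RS. Members and lists were chosen with earlier results of these data known. Motif letters were searched in RefSeq promoters of build GRCh38.p14; protein sequences were not used here. The alternatives were another scaling or centring, other floors, a pseudocount of 16, no filter, other probe sets, 3-fold and leaving out TOP2A. The steps were tested on simulated data with large changes in bright genes only. That test does not cover changes near 2-fold or signals near the floor, where several members lie. Calculations used Python 3.11.15, numpy 2.4.6, pandas 2.3.3 and scipy 1.17.1, and plots matplotlib 3.10.9.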

Additional observations from a re-analysis of the deposited data

Results flagged for a closer look

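RFC5 and POLE4 were on opposite sides of growing cells in the senescent states. The log2 ratio of RFC5 was -0.64 in OIS over growing and 0.18 in RS over growing. That of POLE4 was -0.17 in OIS over growing and 0.16 in RS over growing. With 1 array in each condition the difference was not tested. All 4 ratios were short of 2-fold. Of them, only that of RFC5 in OIS was larger than the SD between probe sets of a gene. The other measured probe sets of RFC5 were below 0 in both states, and so was that of POLE4, at -0.37 and -0.03.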

How the results depend on the processing

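No paired analysis was possible because each condition has 1 array. The median log2 ratio of the members stayed between -1.48 and -1.11 in OIS over growing and between -1.39 and -1.03 in RS over growing under every alternative run, and no member past 2-fold changed sign. With the second-brightest probe set, which exists above the floor for 18 members, 9 were at least 2-fold lower in OIS and 10 in RS, in place of 28 and 26 of 39; 6.75% and 5% of all genes with such a probe set were. At 3-fold, 19 members were lower in OIS and 15 in RS, where 2.53% and 2.35% of all measured genes were. With the median of all probe sets 26 and 21 were lower, where 5.47% and 4.41% of all measured genes were, and without probe sets that can cross-hybridize 20 and 21 of 33, against 6.48% and 5.41%. DSCC1, the single member past 2-fold in OIS over RS, has 1 probe set above the floor. It therefore had no value, and the count was 0, with the second-brightest probe set and without the _s_at and _x_at probe sets. The count was also 0 with the median of all probe sets, where averaging in a probe set at the floor gave DSCC1 a log2 ratio of -0.73, and at 3-fold, which its ratio of -1.47 does not reach. Among the other settings of normalization, floor and pseudocount, the 2-fold calls lost in OIS over growing were CHTF18 with quantile normalization and with a pseudocount of 16, POLE with a floor at the 60th percentile, and RPA3 with the pseudocount, which in RS also lost CLSPN. For single members 34 of 972 recomputed ratios moved by more than the SD between probe sets, among them GINS2 at -0.42 and -0.18 and TIMELESS at -0.27 in both states from their dim probe sets. The 972 include centring, no filter and the floor at the 25th percentile, which could not move a member and left every ratio as it was. The share that moved is therefore larger among the settings that could move one. With a floor at the 25th percentile, 11.7, 18131 genes were measured in place of 13466. Those at least 2-fold lower were 1698, 9.37%, in place of 893 in OIS and 1614, 8.90%, in place of 751 in RS, and those higher 1541 in place of 663 and 1317 in place of 501. The members called stayed at 28 and 26, which was fixed in advance. All 39 were above the floor of 45.5 on every array, so a lower floor could not change their ratios. Leaving the 50 bases after the start out of the promoters, an alternative chosen after seeing the data, left 9 of 33 members with an E2F-type motif in place of 13, against 5.46% of measured genes. Signals of CHAF1B, POLE and CLSPN near the floor limit their ratios, and single arrays limit all of them.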
